A study of Mus musculus with 4 samples.

Results

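To see which liver functions differ with the diet alone, the liver of ob/ob mice fed the western type diet (WD) was compared with that of ob/ob mice fed the control diet (CD), both without 7-ketocholesterol (7KC). Genes were included when they reached at least 1 FPKM (mapped fragments scaled to transcript length and to library size) in WD or CD, which gave 10860 of the 24346 gene symbols listed. The mice were male and carried the ob mutation, so that all groups lacked functional leptin. The diets were given for 4 weeks to mice that were 6 weeks old at the start. CD held 23% casein, 10% sucrose, 5% corn oil and 1% cholesterol, and WD held 20% casein, 34% sucrose, 20% cocoa butter and 1% cholesterol. The diets thus differed in sugar, in the amount and kind of fat and slightly in protein, but not in cholesterol. The series also holds CD+7KC and WD+7KC, in which 0.01% 7KC was added to the same diets. This second pair shares no library with the first, and its values are given beside those of WD and CD for many genes and some lists, and for every list in the plot of list medians. Each of the 4 groups had 1 library, so no difference below has a replicate error or a test, and the number of mice behind a library is not given in the sources used here.

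The liver stores and exports fat, makes bile acids and most plasma proteins, and clears drugs and hormones through cytochrome P450 and conjugating enzymes. Sucrose supplies carbon for fatty acid synthesis through the factors SREBP1c and ChREBP, while dietary fat supplies fatty acids directly and polyunsaturated fatty acids hold SREBP1c back. Cholesterol synthesis and LDL uptake follow SREBP2, which is active when cell sterols are low. In a fatty liver, macrophages that have taken up lipid often gather and express a set of lysosomal and surface proteins.

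The sum of FPKM was 715605 in CD and 699534 in WD. Low FPKM values lay near whole numbers of reads (75.6% within 0.1 in CD and 74.9% in WD), and the spacing of these values gave a depth at which 1 FPKM stands for about 10.94 reads per kilobase of transcript in CD and 9.38 in WD. The exact (Clopper-Pearson) 95% intervals given below for genes with a single RefSeq mRNA rest on this estimate and cover counting error only. The 10 hepatocyte markers were all present, with a median log2 ratio of 0.003 and a summed level of 61544 FPKM in CD against 66256 FPKM in WD. Some abundant RNAs differed between both pairs of libraries. The ribosomal precursor Rn45s was at 3030 FPKM in CD against 771 FPKM in WD, and at 4079 and 436 FPKM in CD+7KC and WD+7KC. Lars2 (1830 and 874 FPKM) and the nuclear RNA Malat1 (29.2 and 7.59 FPKM) were likewise higher in CD than in WD, and the part of such RNAs in the results was not tested. When both libraries were rescaled to equal sums without Rn45s and Lars2, the median of all genes moved to 0.02. In a whole liver, fewer cells of a type and less RNA per cell cannot be told apart.

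The log2 ratio of WD to CD, computed on FPKM + 0.1, was above 1 for 330 of the 10860 genes (3.04%) and below -1 for 272 genes (2.50%). Its median was -0.01, with 5354 genes above 0 and 5505 below 0, and 77.7% of the genes lay within 0.5 of 0 in either direction. Most genes therefore stood at similar levels, as the plot of WD against CD shows. Of the 330 genes 167 reached 1 FPKM in WD alone, and of the 272 genes 127 did so in CD alone, so that a gene near the limit entered through the library in which it was high. Among the 10110 genes with at least 1 FPKM in both libraries, 163 were above 1 and 145 below -1. Of the 330 genes, 78 reached 10 FPKM in either library, and of the 272 genes 94 did. Read numbers could be estimated for 208 of the higher and 178 of the lower genes, and the counting interval excluded 0 for 191 and 158 of them. The genes had been chosen by the same ratio in the same libraries, so these counts are a description and not a separate check. Listed at 0 in one library were 20 of the higher and 20 of the lower genes, and 10 and 5 of these had a longest transcript under 300 bases. Such short genes reached 1871 FPKM against 0 and are not described further.

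**Figure D1:**
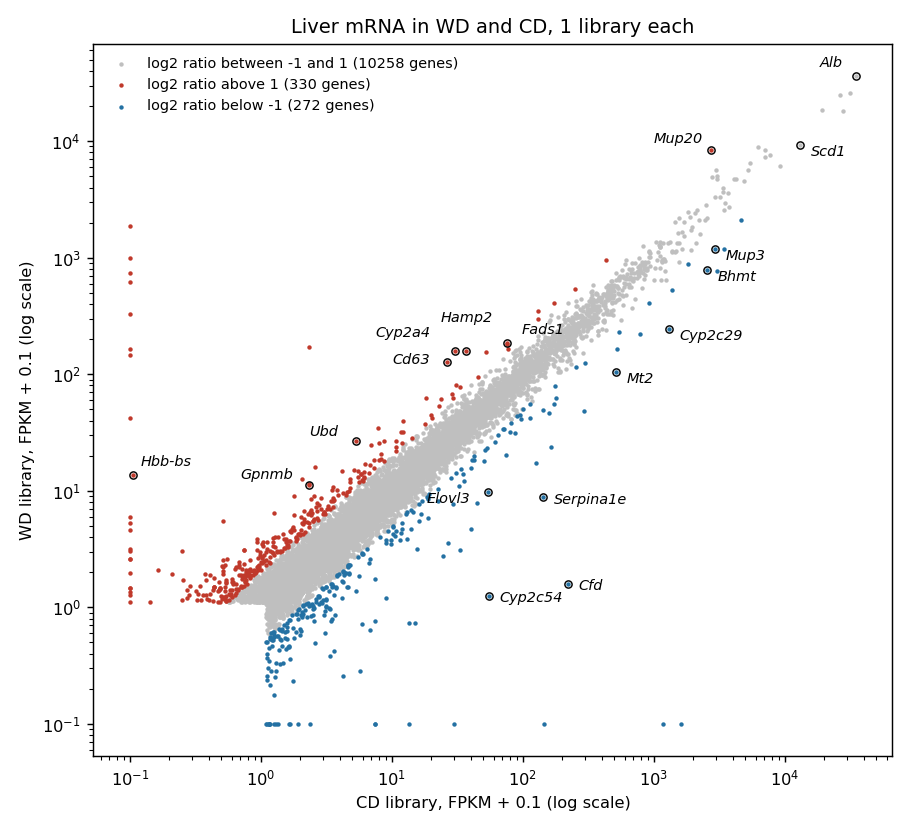
Each point is a gene with at least 1 FPKM in WD or CD; the axes give FPKM + 0.1 in CD and in WD on log scales, and circled genes are named. Most of the 10860 points lie along the diagonal, with 330 genes above a log2 ratio of 1 and 272 below -1, and the points on the left and bottom edges are genes at or near 0 in one library.

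Among genes with at least 5 FPKM, the lowest in WD was Cfd (chromosome 10, 79890853 to 79892655, GRCm38), which encodes complement factor D, also called adipsin. Cfd was at 220 FPKM in CD, 1.47 FPKM in WD, 63.2 FPKM in CD+7KC and 0.115 FPKM in WD+7KC. Both WD libraries were thus far below both CD libraries, with a log2 ratio of -7.13 without 7KC and -8.20 with it. The symbols Apoc4-apoc2 and Rpl26 came next and were listed at 0 in WD. After them Cyp2c54, a cytochrome P450 (chromosome 19, 40037940 to 40073827), was lowest, with 55.2 FPKM in CD against 1.15 FPKM in WD, a log2 ratio of -5.47. Serpina1e, an alpha-1-antitrypsin gene (chromosome 12, 103946931 to 103958975), was at 143 FPKM in CD against 8.77 FPKM in WD (-4.01). Sult1e1, the estrogen sulfotransferase, was at 40.2 and 4.61 FPKM (-3.10, 95% counting interval -3.60 to -2.68). The other genes with the 15 lowest ratios were 5 major urinary protein genes, Sult2a7, Tgoln2, Gm4956 and Gm5512. Rpl26 was also listed at 0 in CD+7KC and WD+7KC, and Apoc4-apoc2 was at 8.86 and 8.54 FPKM there, so that neither followed the diet in the second pair.

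The highest ratio belonged to Hbb-bs, a beta-globin gene with less than 1 read in CD and 13.5 FPKM in WD. Its near-identical neighbour Hbb-b1 was at 93.6 and 165 FPKM, and reads may be split between them. Atp6v0c-ps2 (2.25 and 171 FPKM) and 1810041H14Rik (0 and 5.14 FPKM) came next. Atp6v0c-ps2 is annotated as a copy of a proton pump subunit and may share reads with its parent gene. Fabp3, a fatty acid binding protein of heart and muscle, was at 0.42 FPKM in CD against 5.37 FPKM in WD, with 2.86 and 31.4 estimated reads (3.40, 95% counting interval 1.91 to 5.94). Ubd, the ubiquitin-like protein FAT10 that inflammatory signals induce, was at 5.22 and 26.4 FPKM (2.32, 1.84 to 2.85). Tmem86a, a lysoplasmalogenase, was at 7.78 and 34.7 FPKM (2.14). Hamp2, a paralogue of the iron hormone hepcidin, was at 36.8 and 159 FPKM in CD and WD but at 237 and 131 FPKM in CD+7KC and WD+7KC, so that its order was opposite in the second pair. The remaining genes with the 15 highest ratios were Cib3, Calml4, Rpl37rt, Spink1, Cyp2a4, Ccl5, Cd63 and Gpnmb, with log2 ratios of 2.26 to 2.63.

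Gene lists of liver functions and cell types, 48 in all, held 882 of the 10860 genes. Median log2 ratios of the lists are given as descriptions. Counts of members higher or lower stand beside 5354 of all 10860 genes above 0 and 5505 below 0. Counts past the threshold stand beside 3.04% of all genes above 1 and 2.50% below -1. Those of the major urinary proteins (-3.16) and of the lymphocyte markers (3.18) lay farthest out, but 6 of the 13 urinary protein symbols reached 1 FPKM in CD alone and all 3 lymphocyte genes in WD alone. Without the limit of 1 FPKM these medians were -1.63 and 1.03. The median was 0.5 or higher in 6 lists and -0.5 or lower in 4, and it had the same sign in the second pair of libraries for 33 of the 48 lists. Lists of enzymes that handle foreign compounds lay at the lower end, and lists of macrophage, antigen presentation and interferon genes at the upper end.

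**Figure D2:**
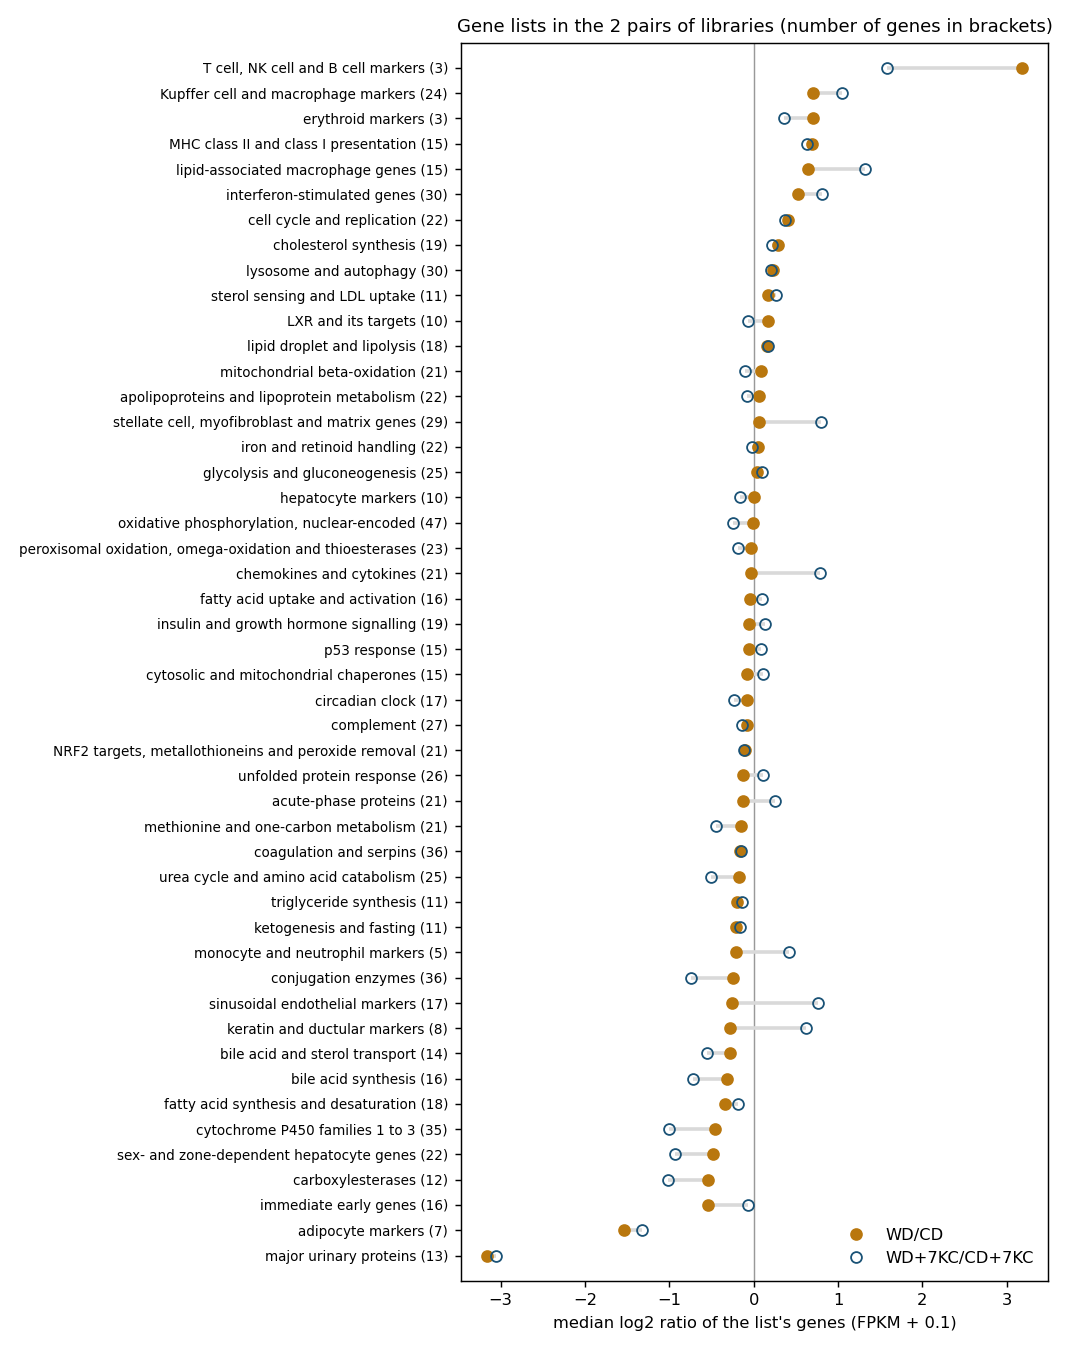
Median log2 ratio of each gene list (horizontal axis, FPKM + 0.1) for WD/CD (filled circles) and WD+7KC/CD+7KC (open circles), with the number of genes in brackets and a grey bar joining both values. The major urinary protein, adipocyte, carboxylesterase and cytochrome P450 lists lie on the left in both pairs and the macrophage lists on the right, while the sinusoidal endothelial list is at -0.25 in WD/CD and 0.76 in WD+7KC/CD+7KC.

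Enzymes of drug and steroid clearance were lower in WD. Of 35 genes of cytochrome P450 families 1 to 3, which oxidise drugs, steroids and fatty acids, 28 were lower and 7 higher, with a median of -0.46. Of these, 11 (31.4%) were below -1 against 2.50% of all genes, and 1 was above 1. Of the 32 genes with at least 1 FPKM in both libraries 9 were below -1. Cyp3a16 and Cyp3a44, named below, reached 1 FPKM in CD alone. Cyp2c29 (chromosome 19, 39269405 to 39330713) was at 1308 FPKM in CD, 243 FPKM in WD, 1239 FPKM in CD+7KC and 186 FPKM in WD+7KC. Both WD libraries were below both CD libraries, with a log2 ratio of -2.43 without 7KC (95% counting interval -2.48 to -2.38). Cyp2c50 was at 291 and 47.8 FPKM in CD and WD (-2.60), and the Cyp2c symbols together were at 2094 and 671 FPKM. The 12 Cyp2c symbols with at least 1 FPKM had a median log2 ratio of -0.18. The lower sum therefore came mainly from Cyp2c29 and Cyp2c50, and not from the whole family. Cyp2d9, a male-typical steroid 16-alpha-hydroxylase, was at 521 and 163 FPKM (-1.67). Cyp2b10, the classic target of the xenobiotic receptor CAR, was at 32.7 and 10.98 FPKM (-1.56, -1.82 to -1.33), and Cyp2b13, Cyp2c37, Cyp2c44, Cyp2d40, Cyp3a16 and Cyp3a44 had ratios of -2.22 to -1.30. The 2 members of highest level stood closer together. Cyp3a11, the main drug-metabolising P450 and a target of the receptor PXR, was at 3735 and 2724 FPKM (-0.46), and Cyp2e1, which oxidises ethanol, at 3444 and 2585 FPKM (-0.41). Cyp2a4, a steroid 15-alpha-hydroxylase, went the other way with 30.2 FPKM in CD against 157 FPKM in WD (2.38), while its close relative Cyp2a5 was at 681 and 369 FPKM (-0.88). The Cyp2a symbols together were at 1170 FPKM in CD against 941 FPKM in WD. Members of these families are similar in sequence, so single values within a family are uncertain where reads could be shared.

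Of 36 conjugation enzymes, 23 were lower and 13 higher in WD, with a median of -0.25. Of these, 4 (11.1%) were below -1 against 2.50% of all genes, and 2 (5.56%) above 1 against 3.04%. Of the 33 genes with at least 1 FPKM in both libraries, 2 were below -1 and 2 above 1. The other 3 genes reached 1 FPKM in CD alone, Sult2a2 and Sult5a1 included. The sulfotransferase Sult2a8 was at 125 FPKM in CD against 17.2 FPKM in WD (-2.86), and Sult2a2 was at 1.02 FPKM in CD and listed at 0 in WD. Sult5a1 (1.90 and 0.553 FPKM) and the glucuronosyltransferase Ugt2b1 (298 and 124 FPKM, -1.27) were also below -1. Some glutathione transferases were higher. Gstm3 (chromosome 3, 107963696 to 107969283) was at 436 FPKM in CD against 961 FPKM in WD (1.14), Mgst3 at 75.1 and 183 FPKM (1.28) and Gstm1 at 2798 and 4880 FPKM (0.80). In the second pair this order was reversed for Gstm1 and Gstm3, with Gstm3 at 1256 FPKM in CD+7KC and 926 FPKM in WD+7KC. The CD library was the lowest of the 4 for both genes. Mgst1, the most abundant member, was at 9152 and 6064 FPKM (-0.59).

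Of 12 carboxylesterases and related hydrolases, which cleave ester drugs and lipids, 11 were lower, with a median of -0.54. Of the 12 genes 4 (33.3%) were below -1 against 2.50% of all genes. Ces2a was at 180 FPKM in CD against 62.9 FPKM in WD (-1.52), Ces3b at 50.4 and 17.8 FPKM (-1.499), Ces3a at 543 and 228 FPKM (-1.25) and Ces2c at 11.9 and 5.14 FPKM (-1.19). Ces1c, the most abundant, was at 822 and 862 FPKM (0.07). In the second pair the medians of the P450, conjugation and carboxylesterase lists were -1.01, -0.74 and -1.01.

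Of 21 genes of antioxidant defence and metal binding, 14 were lower, with a median of -0.11 and 4 below -1. The metallothioneins, which bind zinc and copper, stood apart. Mt2 (chromosome 8, 94172664 to 94173568) was at 516 FPKM in CD, 104 FPKM in WD, 228 FPKM in CD+7KC and 145 FPKM in WD+7KC, a log2 ratio of -2.31 without 7KC (95% counting interval -2.49 to -2.13). Mt1 was at 781, 221, 380 and 279 FPKM in the same order (-1.82 without 7KC). For both genes CD was the highest and WD the lowest of the 4 libraries. Haem oxygenase Hmox1 (42.4 and 19.9 FPKM, -1.08) and the oxidative stress gene Osgin1 (42.4 and 18.3 FPKM, -1.21) were lower in WD than in CD but not in WD+7KC than in CD+7KC (19.3 and 33.1 FPKM, 34.1 and 37.9 FPKM). The abundant Gpx1 and Sod1 had ratios of -0.24 and -0.09.

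The methyl-group cycle differed in a few abundant enzymes. Bhmt (chromosome 13, 93616675 to 93637961), which makes methionine from homocysteine and betaine, was at 2547 FPKM in CD, 786 FPKM in WD, 2378 FPKM in CD+7KC and 760 FPKM in WD+7KC. Gnmt (chromosome 17, 46725664 to 46729168), which uses up excess S-adenosylmethionine, was at 1382, 523, 1534 and 446 FPKM in the same order. Cth, which makes cysteine from cystathionine, was at 176, 78.6, 202 and 64.8 FPKM. For these 3 genes both WD libraries were below both CD libraries, with ratios without 7KC of -1.70 (95% counting interval -1.72 to -1.67), -1.40 (-1.45 to -1.35) and -1.16 (-1.26 to -1.07). Psat1, of serine synthesis, went the other way with 0.65 and 2.25 FPKM in CD and WD (1.66), and reached 1 FPKM in WD alone. Mat1a, which makes S-adenosylmethionine, was at 795 and 757 FPKM (-0.07). Over the 21 genes of the list, 15 were lower and 6 higher, with a median of -0.16, 3 (14.3%) below -1 and 1 above 1. Among all genes 2.50% were below -1 and 3.04% above 1. Of 25 genes of the urea cycle and amino acid breakdown, 17 were lower, with a median of -0.18 and none past 1 in either direction. The lowest were Hpd of tyrosine breakdown (1242 and 648 FPKM, -0.94) and Hal of histidine breakdown (70.4 and 42.1 FPKM, -0.74), and the urea cycle entry enzyme Cps1 was at 377 and 233 FPKM (-0.69). Arg1, the last enzyme of that cycle, was at 1075 and 1124 FPKM (0.06). The highest ratio in that list was 0.26, that of Sds.

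**Figure D3:**
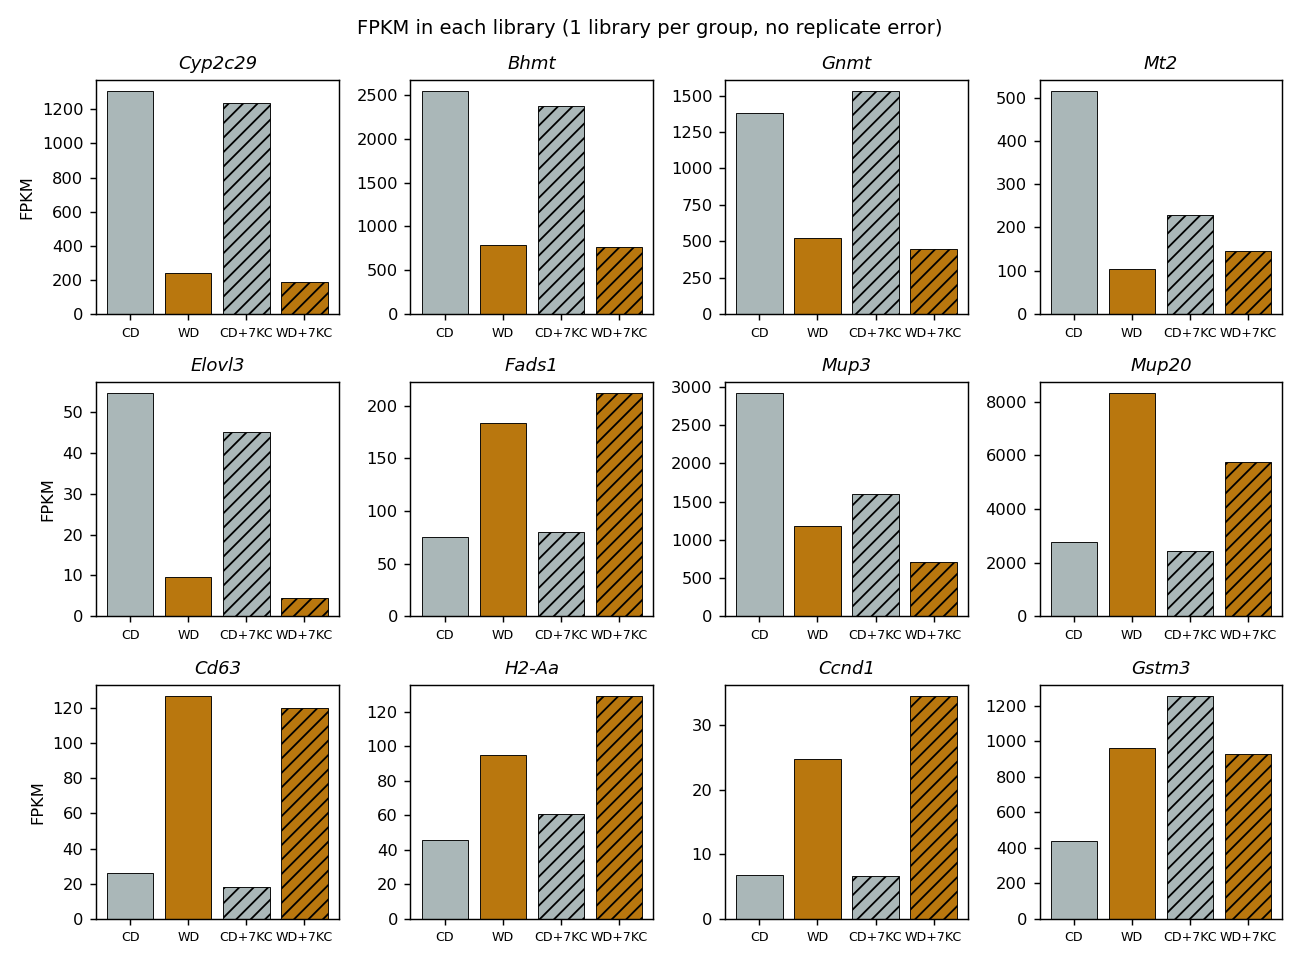
FPKM of 12 genes in the 4 libraries, with CD diets in grey, WD diets in brown and hatching for 7KC; bars start at 0 and carry no error because each group had 1 library. Cyp2c29, Bhmt, Gnmt, Elovl3 and Mup3 are lower and Fads1, Mup20, Cd63, H2-Aa and Ccnd1 higher in both WD libraries than in both CD libraries, while Gstm3 is lowest in CD and Mt2 is highest in CD.

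Major urinary proteins (Mup) are small pheromone carriers that the male liver secretes under growth hormone. Of 13 Mup symbols with at least 1 FPKM, 12 were lower in WD, with a median of -3.16. Of the 13 symbols 10 (76.9%) were below -1 against 2.50% of all genes. With the 1 symbol at 0 in WD set to 3 reads there, the median was -1.96. Of the 7 symbols with at least 1 FPKM in both libraries, 4 were below -1 and 1 above 1. The levels of the members differ widely. Mup3 (chromosome 4, 62083476 to 62087342) was at 2916 FPKM in CD against 1184 FPKM in WD (-1.30). Mup20 (chromosome 4, 62050234 to 62054158), also called darcin, was at 2754 FPKM in CD, 8315 FPKM in WD, 2454 FPKM in CD+7KC and 5747 FPKM in WD+7KC, a log2 ratio of 1.59 without 7KC (95% counting interval 1.57 to 1.62). The other 18 Mup symbols summed to 171 FPKM in CD against 55.0 FPKM in WD. Because of Mup20, the sum over all 20 symbols was higher in WD (5841 and 9555 FPKM) although most members were lower. The Mup genes are nearly identical copies in 1 cluster, and how their reads were divided was not stated.

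Of 22 sex-dependent or zone-dependent hepatocyte genes, 15 were lower and 7 higher, with a median of -0.48, 3 below -1 and 1 above 1. The male-typical genes Cyp2d9, Elovl3, Slco1a1 and Cyp4a12a were lower in WD, with ratios of -1.67, -2.48, -3.16 and -0.68. Of the female-typical genes Cyp2a4 was higher, as given above, and Cyp2b9 was at 97.4 and 116 FPKM (0.25). Among P450 genes outside this list, the female-typical Cyp2b13, Cyp3a44 and Cyp3a16 were lower, with ratios of -1.38, -1.79 and -2.22. Cyp3a44 (1.91 and 0.48 FPKM) and Cyp3a16 (1.01 and 0.14 FPKM) reached 1 FPKM in CD alone, so that their direction follows from that limit. The male-typical Mup20, also outside this list, was higher. With Cyp2b13 and Mup20 included, neither group shared a direction. The bile salt and steroid carrier Slco1a1 was at 3.30 FPKM in CD against 0.28 FPKM in WD, and reached 1 FPKM in CD alone. Markers of the zone around the central vein did not share a direction, with glutamine synthetase Glul at 262 and 309 FPKM, Cyp1a2 at 74.2 and 44.1 FPKM and Rhbg at 8.88 and 4.39 FPKM.

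Other secreted proteins differed gene by gene. Of 21 acute-phase proteins, 12 were lower and 9 higher, with a median of -0.13. Lcn2, which binds bacterial iron carriers, was at 52.3 FPKM in CD against 155 FPKM in WD (1.56, 95% counting interval 1.40 to 1.73), and haptoglobin Hp (3060 and 4757 FPKM, 0.64) and haemopexin Hpx (3017 and 5050 FPKM, 0.74) were also higher. Orm3 was at 74.9 and 19.95 FPKM (-1.90). The fibrinogen genes were lower without 7KC, with Fgb at 2273 and 1612 FPKM. Serum amyloid Saa1 was at 356 and 304 FPKM. Of 27 complement genes 15 were lower, with a median of -0.08, 2 below -1 (Cfd and C8b) and 1 above 1 (the receptor C3ar1). C3ar1 reached 1 FPKM in WD alone (0.53 and 1.18 FPKM). The central component C3 was at 743 and 759 FPKM (0.03). Of 36 coagulation and serpin genes 23 were lower, with a median of -0.16 and none above 1. Of the 36 genes 5 (13.9%) were below -1 against 2.50% of all genes. The most abundant serpins were Serpina1b (3523 and 2936 FPKM, -0.26) and Serpina3k (4666 and 2097 FPKM, -1.15). Serpinb1a (7.31 and 1.66 FPKM) and the pseudogene Serpina4-ps1 (8.94 and 1.10 FPKM) were also below -1. Insulin and growth hormone signalling genes, 12 lower and 7 higher of 19, had a median of -0.05 and none past 1. Igfbp1, which insulin holds down, was at 90.9 and 46.7 FPKM (-0.96), and Socs2, a growth hormone target, at 2.38 and 4.51 FPKM (0.90). Igfbp1 was at 41.6 FPKM in CD+7KC and 47.6 FPKM in WD+7KC (0.20), so that it was not lower in WD+7KC and CD was the highest of the 4 libraries.

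Fatty acid synthesis and desaturation genes went both ways. Of 18 genes, 10 were lower and 8 higher, with a median of -0.34, 4 (22.2%) below -1 and 1 above 1. Among all genes 2.50% were below -1 and 3.04% above 1. The transcription factor ChREBP, encoded by Mlxipl, was at 51.0 FPKM in CD against 22.4 FPKM in WD (-1.18), and the lipogenic regulator Thrsp at 928 and 410 FPKM (-1.18). Elovl6, which lengthens palmitate, was at 81.2 and 37.8 FPKM (-1.10). Elovl3 (chromosome 19, 46131897 to 46135694), which makes very long chains, was at 54.6 FPKM in CD, 9.71 FPKM in WD, 45.2 FPKM in CD+7KC and 4.41 FPKM in WD+7KC. Both WD libraries were below both CD libraries (-2.48 without 7KC, 95% counting interval -2.75 to -2.25). Fatty acid synthase Fasn (82.2 and 59.4 FPKM, -0.47), acetyl-CoA carboxylase Acaca (35.7 and 25.3 FPKM, -0.50) and the desaturase Scd1 (13067 and 9220 FPKM, -0.50) were lower by less. The desaturases of polyunsaturated fatty acids were higher. Fads1 (chromosome 19, 10182888 to 10196877) was at 75.5 FPKM in CD, 184 FPKM in WD, 80.2 FPKM in CD+7KC and 212 FPKM in WD+7KC (1.28 without 7KC, 1.22 to 1.35), and Fads2 at 220 and 410 FPKM in CD and WD (0.90). Elovl2, of the same pathway, was at 107 and 157 FPKM (0.55).

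Of 11 triglyceride synthesis genes 7 were lower, with a median of -0.20 and none past 1. Dgat2, which catalyses the last step, was at 270 and 266 FPKM (-0.02), and Mogat1 at 21.2 and 11.8 FPKM (-0.83). Of 18 lipid droplet genes 12 were higher, with a median of 0.16. The droplet coat gene Plin2 was at 781 and 757 FPKM (-0.04), and Hsd17b13 at 614 and 952 FPKM (0.63). Cidea, which promotes droplet fusion, was at 143 FPKM in CD against 49.0 FPKM in WD (-1.54), and its relative Cidec at 148 and 202 FPKM (0.45). Fatty acid uptake and activation, 9 lower and 7 higher of 16, had a median of -0.04 and none past 1, with Fabp1 at 19129 and 18683 FPKM. Of 21 mitochondrial beta-oxidation genes 16 were higher, with a median of 0.09, whereas 15 were lower in the second pair (-0.10). Cpt1a, the gatekeeper of mitochondrial fatty acid import, was at 108 and 155 FPKM (0.53, 95% counting interval 0.47 to 0.58), and the uncoupling protein Ucp2 at 29.0 and 62.6 FPKM (1.11). Of 23 genes of peroxisomal oxidation, omega-oxidation and thioesterases 13 were lower, with a median of -0.04. Acot2 (6.10 and 16.9 FPKM, 1.46), Abcd2 (3.70 and 10.1 FPKM, 1.42) and Cyp4a31 (2.78 and 6.89 FPKM, 1.28) were above 1 and the male-typical Cyp4a12b (15.4 and 3.08 FPKM, -2.28) below -1. Ketogenesis and fasting genes, 7 lower and 4 higher of 11, had a median of -0.20. The fasting hormone Fgf21 was at 9.68 and 18.4 FPKM (0.92) and Sirt1 at 3.06 and 1.40 FPKM (-1.08).

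Of 22 apolipoprotein and lipoprotein genes 12 were higher, with a median of 0.07 and none past 1. Apoa4, whose level follows hepatic fat, was at 3014 FPKM in CD against 5653 FPKM in WD (0.91), and hepatic lipase Lipc at 89.2 and 49.7 FPKM (-0.84). Apob, the core protein of VLDL, was at 480 and 415 FPKM (-0.21). Of 25 glycolysis and gluconeogenesis genes 14 were higher, with a median of 0.04. Pck2 was above 1 (1.02 and 3.04 FPKM, 1.48), whereas the cytosolic form Pck1 of gluconeogenesis was at 849 FPKM in both libraries.

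Cholesterol synthesis genes were mostly higher in WD although both diets held 1% cholesterol. Of 19 genes 16 were higher and 3 were lower, and the median was 0.29, and 2 (10.5%) were above 1 against 3.04% of all genes. Squalene epoxidase Sqle (chromosome 15, 59315077 to 59331192) was at 1.18 FPKM in CD, 3.90 FPKM in WD, 0.96 FPKM in CD+7KC and 6.74 FPKM in WD+7KC. Both WD libraries were above both CD libraries (1.65 without 7KC, 95% counting interval 1.15 to 2.35). Mevalonate kinase Mvk was at 3.44 and 8.11 FPKM in CD and WD (1.21) but at 4.25 and 4.96 FPKM in the second pair (0.22). Fdps, which makes farnesyl diphosphate, was at 86.7 and 144 FPKM (0.73), and Hmgcs1 at 48.1 and 55.6 FPKM (0.21). Of 11 genes of sterol sensing and LDL uptake 7 were higher, with a median of 0.17 and none past 1. Insig2, which holds SREBP in the endoplasmic reticulum, was at 245 and 152 FPKM (-0.69). Of 10 LXR genes and targets 7 were higher, with a median of 0.17 and none past 1. The biliary sterol exporters Abcg5 (84.2 and 55.8 FPKM, -0.59) and Abcg8 (53.5 and 37.6 FPKM, -0.51) were lower, and Srebf1 was at 77.9 and 78.0 FPKM.

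Bile acid synthesis genes were lower in WD. Of 16 genes 15 were lower, with a median of -0.32, whereas 5505 of all 10860 genes were below 0. The counting interval lay below 0 for 13 of the 14 genes that had one. The median half-width of these intervals was 0.08, so that small ratios can also lie outside them. Akr1d1, the steroid 5-beta-reductase, was below -1 (64.7 and 30.2 FPKM, -1.10). The 12-alpha-hydroxylase Cyp8b1 was at 186 FPKM in CD against 104 FPKM in WD (-0.83), and Cyp7a1, the rate-limiting enzyme of the classical pathway, at 18.1 and 13.1 FPKM (-0.47, 95% counting interval -0.64 to -0.31). Cyp39a1 was the 1 member that was higher (3.56 and 7.09 FPKM). In the second pair the median was -0.72. Of 14 bile acid and sterol transport genes 9 were lower, with a median of -0.28. The uptake carrier Slco1b2 was at 370 and 279 FPKM, and Slco1a4 (6.01 and 12.997 FPKM, 1.10) and Slc51b (0.65 and 3.01 FPKM, 2.06) were above 1. Slc51b reached 1 FPKM in WD alone of this pair. Its order was opposite in the second pair, with 3.55 FPKM in CD+7KC and 2.05 FPKM in WD+7KC. Slco1a1, given above, was the 1 gene of this list below -1 and reached 1 FPKM in CD alone. The bile salt export pump Abcb11 was at 94.7 and 65.9 FPKM (-0.52) and the bile acid sensor target Nr0b2 (SHP) at 24.9 and 15.1 FPKM (-0.72).

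Macrophage genes were higher in WD. Of 24 Kupffer cell and macrophage markers 22 were higher and 2 lower (Cd163 and Mertk), with a median of 0.71, and 5 (20.8%) were above 1 against 3.04% of all genes. Their summed level was 361 FPKM in CD, 602 FPKM in WD, 518 FPKM in CD+7KC and 1100 FPKM in WD+7KC. WD was thus above both CD libraries and WD+7KC the highest. Cd5l, a protein secreted by macrophages, was at 30.9 and 81.1 FPKM in CD and WD (1.39, 95% counting interval 1.26 to 1.53), and Cd68, a lysosomal glycoprotein, at 8.11 and 20.7 FPKM (1.34). Clec7a (5.76 and 13.7 FPKM), Fcgr1 (0.72 and 1.95 FPKM) and Spic (0.51 and 1.495 FPKM) were the others above 1, of which Fcgr1 and Spic reached 1 FPKM in WD alone. The resident Kupffer cell markers Clec4f (20.9 and 29.2 FPKM) and Timd4 (1.20 and 1.55 FPKM) had ratios of 0.48 and 0.35. Of 15 genes of lipid-associated macrophages 14 were higher, with a median of 0.64 and 5 (33.3%) above 1. Gpnmb (chromosome 6, 49036546 to 49070929), a lysosomal membrane glycoprotein, was at 2.25 FPKM in CD, 11.2 FPKM in WD, 3.77 FPKM in CD+7KC and 24.4 FPKM in WD+7KC. Cd63, a tetraspanin of late endosomes (chromosome 10, 128900989 to 128912822), was at 26.2, 127, 17.9 and 120 FPKM, the lipid receptor Trem2 at 2.92, 6.46, 2.64 and 9.52 FPKM, and Mmp12 at 2.37, 6.29, 3.35 and 17.9 FPKM. For these 4 genes both WD libraries were above both CD libraries. Ctsk was at 1.38 FPKM in CD and in WD.

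Antigen presentation genes were higher as well. Of 15 genes 14 were higher, with a median of 0.69 and 5 (33.3%) above 1 against 3.04% of all genes. These 5 were all of the class II pathway. H2-Aa (chromosome 17, 34282744 to 34287823) was at 45.8 FPKM in CD, 95.1 FPKM in WD, 60.7 FPKM in CD+7KC and 129 FPKM in WD+7KC (1.05 without 7KC, 95% counting interval 0.89 to 1.22). Cd74, the invariant chain, was at 77.4, 166, 91.9 and 251 FPKM in the same order (1.10 without 7KC). H2-Eb1, H2-DMa and H2-DMb1 had ratios of 1.21, 1.19 and 1.30. The class I genes were closer together, with H2-K1 at 787 and 811 FPKM and its light chain B2m at 2508 and 2858 FPKM (0.19).

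Of 30 interferon-stimulated genes 28 were higher, with a median of 0.52 and 5 (16.7%) above 1 against 3.04% of all genes. Usp18, which limits interferon signalling, was at 2.78 FPKM in CD, 8.56 FPKM in WD, 4.10 FPKM in CD+7KC and 7.70 FPKM in WD+7KC (1.59 without 7KC, 95% counting interval 1.12 to 2.13). Gbp3 (1.25 and 3.95 FPKM, 1.58), Gbp2 (2.14 and 5.25 FPKM, 1.26), Ifit2 (0.85 and 2.03 FPKM, 1.17) and Ifi44 (0.60 and 1.40 FPKM, 1.10) were the others above 1, of which Ifit2 and Ifi44 reached 1 FPKM in WD alone. Bst2, the most abundant, was at 285 and 318 FPKM. Oas1a was the lowest, at 1.67 and 1.38 FPKM (-0.26, -1.13 to 0.56), so that at this depth no difference could be detected. Interferon-stimulated genes often carry an interferon-stimulated response element, a pair of GAAA steps, before their start. The letters GAAA, any 2 bases and GAAA again, on either strand, were found in the promoter windows (250 bases before to 50 after the start, RefSeq, GRCm38.p6) of 14 of the 23 listed genes that had a window (60.9%), against 3.99% of all 27025 genes with one. The 14 genes had a median log2 ratio of 0.44 and the 9 genes with a window but without these letters 0.68, so that the higher levels were not limited to genes with the match. The 80-base stretches shown here, read along each gene's own strand, belong to the 4 genes of highest ratio (Gbp3, Gbp2, Ifit3 and Isg15) among those whose matches all end before the start, and capitals mark the matched letters in either orientation.
Gbp2 (chr3:142620569-142620648, plus strand): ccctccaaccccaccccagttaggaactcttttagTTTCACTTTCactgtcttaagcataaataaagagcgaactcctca
Gbp3 (chr3:142559964-142560043, plus strand): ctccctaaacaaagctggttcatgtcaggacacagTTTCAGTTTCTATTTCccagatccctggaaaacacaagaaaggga
Ifit3 (chr19:34583355-34583434, plus strand): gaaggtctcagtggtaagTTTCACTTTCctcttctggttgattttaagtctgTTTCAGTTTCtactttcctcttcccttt
Isg15 (chr4:156200846-156200925, minus strand): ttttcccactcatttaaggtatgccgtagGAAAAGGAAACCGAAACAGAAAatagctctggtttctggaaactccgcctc

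Isg15, a ubiquitin-like protein whose window holds 3 overlapping matches, was at 8.43 FPKM in CD against 15.96 FPKM in WD (0.91, 95% counting interval 0.40 to 1.46). Ifit3, with 2 separate matches, was at 2.94 and 5.71 FPKM (0.94, 0.43 to 1.49).

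Chemokines and cytokines did not share a direction. Of 21 genes 12 were lower and 9 higher, with a median of -0.04, 4 below -1 and 1 above 1. Of the 18 genes with at least 1 FPKM in both libraries, 2 were below -1 and 1 above 1. Ccl7 and Cxcl2 reached 1 FPKM in CD alone. Ccl5, a T cell attractant, was at 2.24 FPKM in CD, 11.4 FPKM in WD, 1.40 FPKM in CD+7KC and 9.64 FPKM in WD+7KC (2.30 without 7KC, 95% counting interval 1.26 to 3.71). The monocyte and neutrophil attractants Ccl2 (14.5 and 6.52 FPKM, -1.15), Ccl7 (3.22 and 0.89 FPKM, -1.74), Cxcl1 (9.78 and 3.41 FPKM, -1.49) and Cxcl2 (1.35 and 0.36 FPKM, -1.65) were lower in WD than in CD. In the second pair their ratios were 0.56, -0.01, -0.69 and 1.10. Cxcl1 thus kept its order, Ccl7 was nearly equal, and Ccl2 and Cxcl2 went the other way. In that pair 15 of the 21 genes were higher, with a list median of 0.78 and 8 above 1. Tnf was at 0.324 and 0.151 FPKM, under the limit of 1 FPKM and without a counting interval, so that no direction is read from it. The paper reported Tnf mRNA by qRT-PCR as significantly higher in WD than in CD. Il6 was listed at 0 in both libraries, Il1b was at 2.27 and 1.79 FPKM (-0.33, -1.30 to 0.50) and Tgfb1 at 3.03 and 3.97 FPKM (0.38, -0.11 to 0.89). For Il1b and Tgfb1 the intervals spanned 0, so that at this depth no difference could be detected.

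Of 23 lymphocyte markers among the symbols 3 reached 1 FPKM, each in WD alone, so that their direction follows from the limit of 1 FPKM and is given as a description. Nkg7 of cytotoxic cells was at 0.15 FPKM in CD against 2.96 FPKM in WD, Cd3g of T cells at 0.11 and 1.81 FPKM, and the granzyme Gzma at 0.54 and 2.04 FPKM. Their counting intervals were wide (1.82 to 9.85, 1.31 to 9.43 and 0.23 to 4.00), and the summed level of the 23 markers was 4.70 FPKM in CD, 14.7 FPKM in WD, 7.80 FPKM in CD+7KC and 14.0 FPKM in WD+7KC. Of 16 monocyte and neutrophil markers 5 reached 1 FPKM, with 4 lower and a median of -0.21. S100a8 was at 11.8 FPKM in CD against 4.58 FPKM in WD (-1.35), while its partner S100a9 was at 8.40 and 8.08 FPKM.

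Markers of other cell types were checked for the whole lists. Of 17 sinusoidal endothelial markers 14 were lower and 3 higher in WD, with a median of -0.25 and none past 1, and their summed level was 141 FPKM in CD, 115 FPKM in WD, 192 FPKM in CD+7KC and 299 FPKM in WD+7KC. Lyve1, a hyaluronan receptor, was at 9.82 and 5.49 FPKM in CD and WD (-0.83). Of 29 stellate cell and matrix genes 15 were higher and 14 were lower, with a median of 0.06 and none past 1, whereas all 29 were higher in the second pair, with a median of 0.80 and 9 above 1. Col1a1 was at 8.23 and 7.86 FPKM (-0.07), Col1a2 at 10.1 and 11.1 FPKM (0.14), the muscle-type protein Tagln at 16.8 and 10.6 FPKM (-0.67) and the collagenase Mmp14 at 6.64 and 12.04 FPKM (0.85). Of 8 keratin and ductular markers 6 were lower, with a median of -0.28. Of these 8 markers 3 reached 1 FPKM in CD alone, Sox9 included, and the median of the 5 in both libraries was -0.07. Krt8 was at 439 and 355 FPKM, and Sox9, a ductular transcription factor, at 1.01 and 0.40 FPKM (-1.15). Of 10 adipocyte markers 7 reached 1 FPKM, 5 of them lower, with a median of -1.54. Of the 7 markers 4 (57.1%) were below -1 against 2.50% of all genes. The 4 markers were Cfd, Cidea, Car3 and Retn. Car3, carbonic anhydrase 3, was at 3466 FPKM in CD, 1190 FPKM in WD, 3096 FPKM in CD+7KC and 778 FPKM in WD+7KC. The defining adipocyte genes Lep and Plin1 were at 0 in all 4 libraries and Adipoq at 0.088 FPKM in CD and 0 in WD, whereas Fabp4 was at 83.5 and 104 FPKM. Retn was at 1.21 FPKM in CD and listed at 0 in WD, so that its direction follows from the limit of 1 FPKM. Of the 6 adipocyte markers with at least 1 FPKM in both libraries 3 were below -1, with a median of -1.02. Of the 3 erythroid markers with at least 1 FPKM, Hba-a1 was at 89.8 and 146 FPKM and Alas2, of haem synthesis in red cells, at 86.5 and 30.9 FPKM (-1.48), so that globin and Alas2 went opposite ways, with a list median of 0.71. The part of these cell types in the other results was not tested.

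Of 22 cell cycle and replication genes 19 were higher, with a median of 0.40 and 2 above 1. Of the 22 genes 3 reached 1 FPKM in WD alone, Mcm5 included. Among the 19 genes with at least 1 FPKM in both libraries the median was 0.35 and 1 was above 1. Cyclin D1, encoded by Ccnd1 (chromosome 7, 144929931 to 144939925), was at 6.87 FPKM in CD, 24.8 FPKM in WD, 6.57 FPKM in CD+7KC and 34.6 FPKM in WD+7KC. Both WD libraries were above both CD libraries (1.84 without 7KC, 95% counting interval 1.65 to 2.06). The replication gene Mcm5 was at 0.51 and 1.31 FPKM (1.22), and Pcna at 28.5 and 29.3 FPKM. All 16 immediate early genes were lower in WD, with a median of -0.55, and the counting interval lay below 0 for 13 of the 15 that had one. Of the 16 genes 3 reached 1 FPKM in CD alone, Klf4 and Ier3 included, so that their direction follows from that limit. Among the 13 genes with at least 1 FPKM in both libraries the median was -0.47 and 1 was below -1. Fos was at 6.77 and 2.51 FPKM (-1.39), Klf4 at 1.12 and 0.45 FPKM (-1.16), Ier3 at 2.36 and 0.96 FPKM (-1.22) and Jund at 43.4 and 31.9 FPKM (-0.44). In the second pair the median of these genes was -0.07.

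Stress lists lay near 0. Of 26 unfolded protein response genes 18 were lower, with a median of -0.13, and Chac1, a glutathione-degrading enzyme, was the 1 gene below -1 (8.91 and 3.48 FPKM, -1.33). Chac1 was at 2.055 FPKM in CD+7KC and 2.526 FPKM in WD+7KC (0.29), so that CD was the highest of the 4 libraries. The chaperone BiP, encoded by Hspa5, was at 256 and 236 FPKM (-0.12). Of 15 cytosolic and mitochondrial chaperones 9 were lower, with a median of -0.08 and none past 1, and Hspa8 was at 557 and 691 FPKM. Of 15 p53 response genes 8 were lower, with a median of -0.06. Phlda3 (1.15 and 3.85 FPKM, 1.66) was above 1 and the stress hormone Gdf15 (33.9 and 15.3 FPKM, -1.15) and Btg2 (18.7 and 8.46 FPKM, -1.14) below -1. Of 17 clock genes 10 were lower, with a median of -0.08 and none past 1, and Nfil3 had the largest difference (9.90 and 5.14 FPKM, -0.93). The 47 nuclear-encoded genes of oxidative phosphorylation were split into 23 higher and 24 lower, with a median of -0.01 and none past 1, and 44 were lower in the second pair (-0.25). Ratios in that list ranged from -0.36 for Sdha to 0.39 for Ndufa7. Of 30 lysosome and autophagy genes 22 were higher, with a median of 0.23. Cd63 was above 1, and the proteases Ctsb (149 and 210 FPKM, 0.50) and Ctsd (302 and 395 FPKM, 0.39) were also higher. Of 22 iron and retinoid genes 13 were higher, with a median of 0.05. Hepcidin, encoded by Hamp, was at 1464 FPKM in CD against 2027 FPKM in WD (0.47), and Hamp2 was the 1 gene above 1.

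The same genes were then set beside the second pair of libraries, WD+7KC and CD+7KC. Over the 10860 genes the log2 ratio of WD+7KC to CD+7KC was above 1 for 564 (5.19%) and below -1 for 313 (2.88%). Of the 330 genes above 1 in WD/CD, 170 (51.5%) were above 1 in the second pair, 290 (87.9%) above 0 and 10 below -1. Of the 272 genes below -1, 138 (50.7%) were below -1 in the second pair, 217 (79.8%) below 0 and 13 above 1. Over all 10860 genes 47.3% were above 0 and 52.6% below 0 in the second pair. Across the 10860 genes the ratios of both pairs were related with a rank correlation (Spearman) of 0.52. This is a description across genes, which share libraries and annotation, and it carries no p-value. Genes whose ratio was past 1 in the same direction in both pairs included Cfd, Cyp2c29, Cyp2c54, Bhmt, Gnmt, Car3 and Elovl3 on the lower side and Cd63, Gpnmb, Ccnd1, Fads1, Sqle and Mup20 on the higher side.

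**Figure D4:**
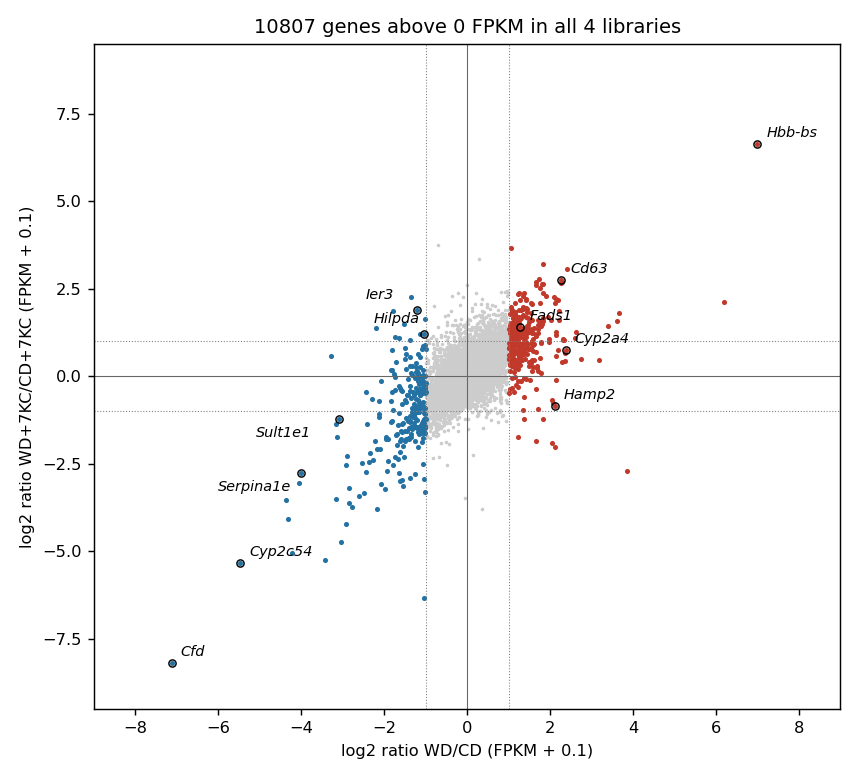
Log2 ratio of WD to CD (horizontal axis) against that of WD+7KC to CD+7KC (vertical axis) for 10807 genes above 0 FPKM in all 4 libraries, with dotted lines at 1 and -1. Red and blue points have a WD/CD ratio above 1 or below -1. Cfd and Cyp2c54 lie far to the lower left, while Ier3 and Hilpda are below -1 in WD/CD and above 1 in the second pair.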

How the data were processed

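Liver RNA of 4 groups was sequenced, 1 library each, from 75-base single-end reads. The authors mapped the reads to mm10 with TopHat2 2.0.13, Bowtie2 2.2.3 and SAMtools 0.1.19, and deposited FPKM values per gene symbol from Cufflinks 2.2.1. The annotation and Cufflinks options are not given in the sources used here. Groups came from the sample titles.

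Here the log2 ratio of FPKM + 0.1 was computed for genes with at least 1 FPKM in WD or CD. This understates differences of low genes. With 1 library a group no test was run, and a ratio past 1 or -1 is a description. Depth came from the spacing of low FPKM values in genes with 1 RefSeq mRNA, with transcript length minus 200 bases; counting intervals rest on it. Coordinates and lengths came from GENCODE vM21 (GRCm38), promoter windows from RefSeq. No fold is given for genes listed at 0.

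Named were the 15 highest and 15 lowest ratios among genes with at least 5 FPKM and transcripts of at least 300 bases, and in each list the members past 1 or -1 (otherwise the 2 with the largest difference), the 2 of highest level, and the study's qRT-PCR genes. Where a member outside this rule is named, it was chosen after its values were seen. The members and lists were chosen with earlier results of these data known. Alternatives were a pseudocount of 1 or 0.01, other filters, 4 scalings and thresholds of 1.5-fold and of 2 on the log2 scale. The rescaling without Rn45s and Lars2 was added after seeing the data. The code was tested on simulated data. Python 3.11.15, numpy 2.4.6, pandas 2.3.3, scipy 1.17.1 and matplotlib 3.10.9 were used. Some genes that the rule names are not reported here.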

Additional observations from a re-analysis of the deposited data

Results flagged for a closer look

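Some results went opposite ways in both pairs of libraries. These differences were not tested, since each group had 1 library. Among gene lists, the sinusoidal endothelial markers had a median log2 ratio of -0.25 in WD/CD and 0.76 in WD+7KC/CD+7KC. The keratin and ductular markers had -0.28 and 0.62, and the monocyte and neutrophil markers -0.21 and 0.42. Among single genes, Ier3, an immediate early gene, had -1.22 in WD/CD and 1.91 in WD+7KC/CD+7KC. Hilpda, which inhibits lipolysis on lipid droplets, was at 9.27 FPKM in CD, 4.43 in WD, 2.79 in CD+7KC and 6.66 in WD+7KC, with ratios of -1.05 and 1.22. The chemokine Cxcl2 had -1.65 and 1.10. The transcript 1810041H14Rik, listed at 0 in CD, had 5.71 and -2.35 on the scale with the pseudocount, which is no measure of a fold for a gene at 0.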

How the results depend on the processing

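The counts of 330 genes above 1 and 272 below -1 depended on the treatment of low values. They were 150 and 137 with a pseudocount of 1, 828 and 683 without a filter, 127 and 117 among genes with at least 5 FPKM in WD or CD, and 163 and 145 among genes with at least 1 FPKM in both. A 1.5-fold threshold gave 1001 and 820, and a log2 threshold of 2 gave 59 and 62. A pseudocount of 0.01, the 300-base limit and the 4 scalings kept both counts within 1.5 times. Of 24 list medians of at least 0.2 in size, 3 changed sign under an alternative. The monocyte and neutrophil median became 0.12 without a filter, the keratin median 0.13 among genes with at least 5 FPKM, and the erythroid median -0.39 with at least 1 FPKM in both. The major urinary protein median was -1.46 with a pseudocount of 1, -1.63 without a filter and -1.03 with at least 1 FPKM in both. The lymphocyte median was 1.34, 1.03 and, with no gene left, not computed in the same order. The fatty acid synthesis median was -0.20 without a filter, the bile acid synthesis median -0.20 and the methionine median -0.41 at 5 FPKM, and the adipocyte median -1.02 in both stricter filters. The 30 largest differences kept their sign and stayed past 1 under the 6 alternatives run on single genes. The largest shift of a list median under a scaling was 0.033. Depth limits genes near 1 FPKM, and variation between mice could not be estimated. No paired analysis was possible because each group had 1 library.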

Other observations

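Ribosomal protein genes, which belong to none of the lists, were mostly higher in WD. The 78 Rpl and Rps symbols with at least 1 FPKM had a median log2 ratio of 0.22, and all 81 symbols summed to 29604 FPKM in CD, 34741 FPKM in WD, 28553 FPKM in CD+7KC and 30604 FPKM in WD+7KC. These proteins build the ribosome, and their mRNAs are short and abundant. Within the Cyp2b family the sum was 140 FPKM in CD and 131 FPKM in WD, but 305 FPKM in CD+7KC and 114 FPKM in WD+7KC.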
